A study of Homo sapiens with 4 samples.

Results

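The baseline state of MDA-MB-231 and SUM159, established lines of triple-negative breast cancer (TNBC), was compared in the 2 libraries of cells that had received solvent alone (DMSO, 72 h), which are 2 of the 4 samples sequenced. The other 2 libraries, of the same lines after 72 h with 1 uM mebendazole (MBZ), a benzimidazole drug that binds tubulin, were used here only to see how far a line difference depended on the culture condition. MDA-MB-231 comes from a pleural effusion of a metastatic breast adenocarcinoma and was grown in DMEM with serum. SUM159 comes from a primary anaplastic breast carcinoma and was grown in Ham's F12 with less serum, insulin and hydrocortisone, so cell line and medium cannot be told apart in any value below. Each condition had 1 library of poly-A enriched RNA, so that no group had a replicate.

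TNBC cells lack the oestrogen and progesterone receptors and amplified ERBB2, and the group is known to be mixed. In the breast, luminal cells line the duct and carry simple keratins, while basal or myoepithelial cells sit on the basement membrane and carry other keratins, TP63 and contractile proteins. Carcinoma cells can lose the junctions of an epithelium (E-cadherin, claudins, desmosomes) and gain mesenchymal proteins such as vimentin, N-cadherin and fibronectin, a shift that is called the epithelial-mesenchymal transition and that is driven by the SNAI, TWIST and ZEB transcription factors. Both lines are commonly placed among the mesenchymal-like, claudin-low TNBC lines.

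The DMSO libraries held 24897586 (MDA-MB-231) and 18708179 (SUM159) counts, and the MBZ libraries 17143139 and 18904501. A count of 0 allows up to 3 counts, which is 0.118 CPM (read counts scaled to a common library total) in the MDA-MB-231 and 0.164 CPM in the SUM159 library. The 50 most abundant genes took 14.8% of the counts of the MDA-MB-231 library and 20.4% of those of SUM159. Among the receptors that define TNBC, ESR1 had 1 count in MDA-MB-231 and 2 in SUM159, PGR had no count in either library and ERBB2 was at 78.5 and 99.7 CPM. CDKN2A and MTAP, which are known to be deleted in MDA-MB-231, had no count there, and they were also near the floor in SUM159 with 10 and 3 counts. Of 28 markers of other cell types, T cell, B cell, adipocyte, hepatocyte and erythroid genes (CD3E, MS4A1, ADIPOQ, ALB, HBA1, HBB) had no more than 2 counts in either DMSO library. The 28 markers summed to 37.3 CPM in MDA-MB-231 and 366 CPM in SUM159, and 11 of the 13 with enough counts to compare were at least 2-fold higher in SUM159. That sum includes fibroblast-type genes that are also described with the matrix and the receptors below (PDGFRB, COL1A1, PDGFRA, DCN). CD14, a monocyte surface protein, had 53 counts in MDA-MB-231 and 477 in SUM159, and the leukocyte phosphatase PTPRC had 8 and 216. Whether other cells contributed to these counts was not tested, and in bulk RNA fewer cells of a type and less RNA per cell cannot be told apart. The strand setting of the counts is not given in the sources used here, so reads of the 88 of 223 named genes that overlap a gene on the other strand, among them MME, CADM3, CDH13, SPINT2, MBP, PYGL, FLNC, KRT8 and KRT18, may come in part from that gene.

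Of the 58735 genes in the table, 15559 averaged 10 or more counts in the DMSO pair. Their CPM in SUM159 was divided by that in MDA-MB-231, and a fold of at least 2 was called. By this measure 3423 genes (22.0%) were higher in SUM159 and 3294 (21.2%) in MDA-MB-231. The median log2 fold change over all genes compared was -0.03, and 1821 and 1713 genes were at least 4-fold apart. With 1 library per line these folds have no replicate check, so most are given with a 95% counting interval, which covers only the sampling of reads. The libraries had no molecular identifiers, so amplified copies count as separate reads and the intervals and floors cover counting error only. Where a gene had no count in one line, its fold is a lower bound against 3 counts there. A gene that is silent in one line passes the count filter only through the line where it is high, so the share of a list that is far apart is read against the shares of all genes, 22.0% and 21.2%.

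In the MBZ pair, 3089 of 16357 genes (18.9%) were at least 2-fold higher in SUM159 and 2822 (17.3%) in MDA-MB-231. Of the genes called higher in SUM159 with DMSO that could be compared in both pairs, 1949 of 3189 (61.1%) were called the same way with MBZ and 45 the opposite way. For those higher in MDA-MB-231 the numbers were 1871 of 3160 (59.2%) and 47. A model over the 4 libraries with terms for treatment and line (edgeR quasi-likelihood test, Benjamini-Hochberg adjusted p under 0.05 over 16100 genes) called 1869 genes higher in SUM159 (11.6%) and 1586 higher in MDA-MB-231 (9.85%). The number of a list that passed this line test is read against these shares of all genes, 11.6% and 9.85%. In this line test the treatments stand in for replicates. It asks whether the lines differed by more than that difference varied between DMSO and MBZ, and the spread between cultures of 1 condition was not measured.

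**Figure D1:**
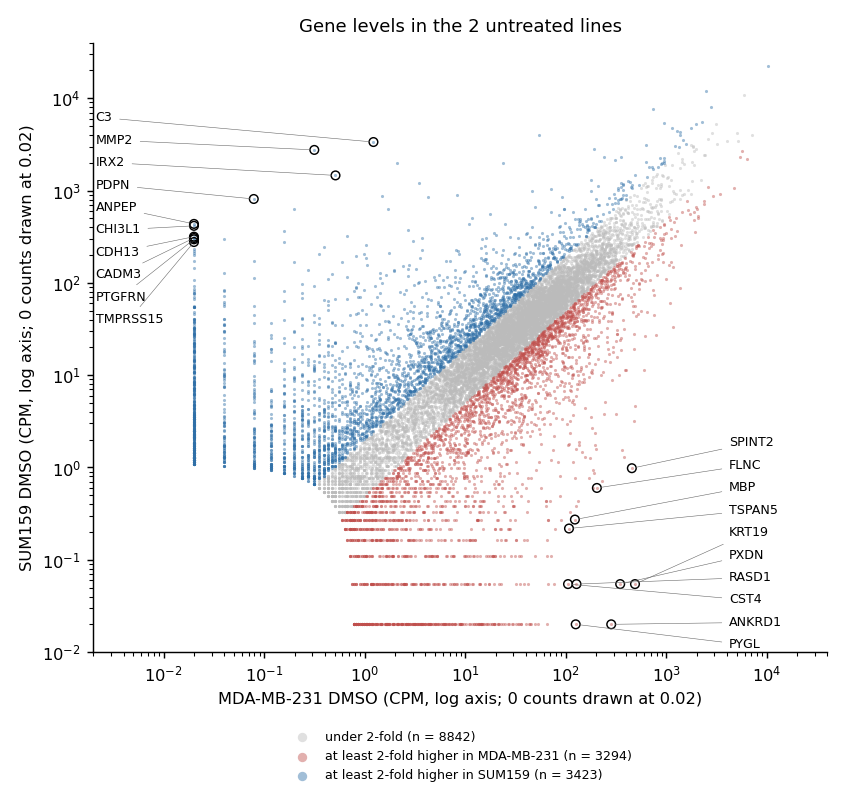
Each point is 1 of the 15559 genes compared, with its level in CPM in MDA-MB-231 (x axis, log) and in SUM159 (y axis, log) with DMSO, and a gene without counts is drawn at 0.02. Circles mark the 10 protein-coding genes farthest apart in each direction among those that averaged 1000 counts or more, such as MMP2 at 2756 CPM in SUM159 and KRT19 at 487 CPM in MDA-MB-231.

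Among protein-coding genes that averaged 1000 counts or more, the 10 farthest apart in each direction had a strong signal in one line and almost none in the other. Higher in SUM159 were MMP2, the gelatinase that cuts type IV collagen (on chromosome 16 from 55389700 to 55506691 of GRCh38), with 8 counts in MDA-MB-231 and 50494 in SUM159, and PDPN, the membrane mucin podoplanin, with 2 and 14853. ANPEP (aminopeptidase N) had 0 and 7976 counts, CHI3L1, a secreted chitinase-like glycoprotein, 0 and 7603, the homeobox gene IRX2 13 and 26734, the complement component C3 31 and 61499, and PTGFRN and TMPRSS15 0 and 5432 and 0 and 5078, in each case with MDA-MB-231 first. With MBZ, CHI3L1 had 0 and 542 counts and C3 67 and 11830, while IRX2 had 8 and 29733 and ANPEP 3 and 12607. The adhesion genes CDH13 and CADM3 complete these 10. Higher in MDA-MB-231 were KRT19, a keratin of simple epithelia (chromosome 17 from 41523617 to 41528308), with 12386 counts in MDA-MB-231 and 1 in SUM159, and PXDN (peroxidasin), which crosslinks collagen IV, with 8823 and 1. The muscle ankyrin repeat gene ANKRD1 had 7186 and 0 counts, the liver-type glycogen phosphorylase PYGL 3186 and 0, the Ras-like gene RASD1 3244 and 1, the cystatin CST4 2672 and 1, the tetraspanin TSPAN5 2733 and 4, MBP 3128 and 5 and the actin crosslinker FLNC 5174 and 11. SPINT2, a membrane inhibitor of serine proteases, completes the list and is described with the junction genes. The gene with the most counts in both DMSO libraries was EEF1A1, the elongation factor that brings tRNA to the ribosome, followed by ACTB, IGFBP4, MT-CO1 and ENO1 in MDA-MB-231 and by EEF2, MT-CO1, MT-RNR2 and FTH1 in SUM159.

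**Figure D2:**
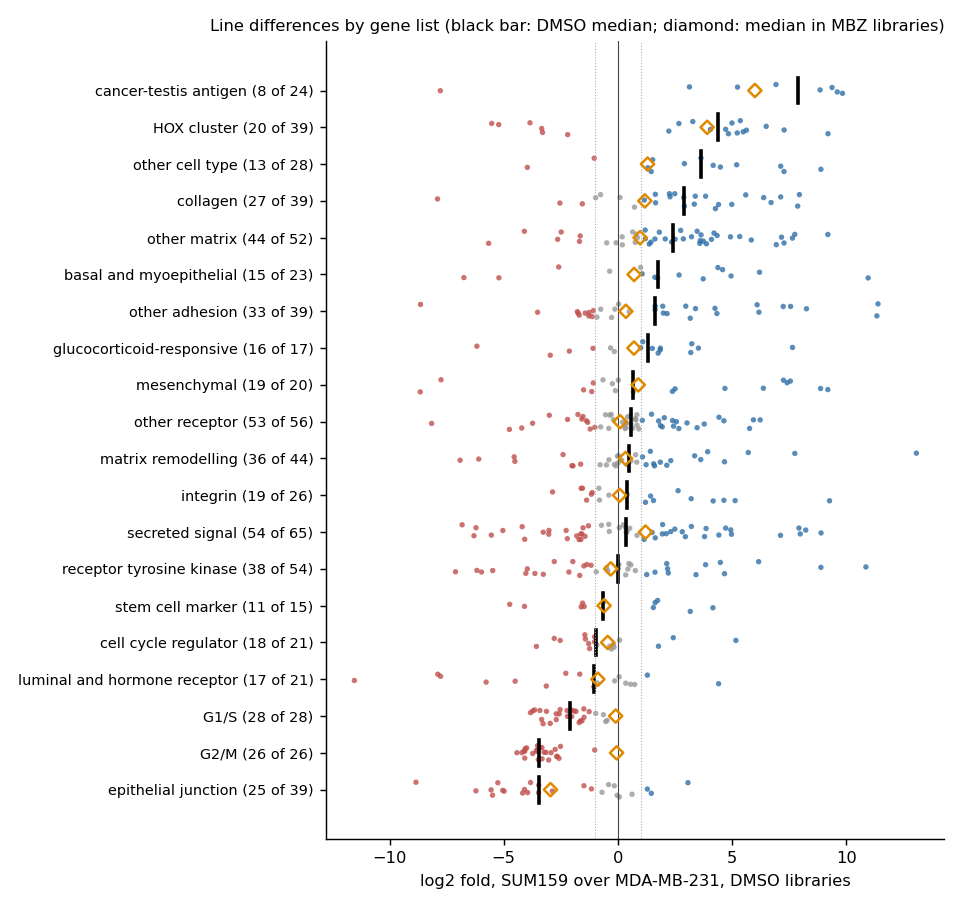
Log2 fold of SUM159 over MDA-MB-231 with DMSO (x axis) for the members of 20 gene lists (y axis, with the number compared of the number listed), each point a gene, blue at least 2-fold higher in SUM159 and red in MDA-MB-231, with genes at 3 or fewer counts in 1 library drawn at their bound. The black bar is the median with DMSO and the orange diamond the median with MBZ, and the 2 lie far apart for G2/M genes (-3.45 and -0.05) and close together for HOX genes (4.39 and 3.91).

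Luminal genes were mostly higher in MDA-MB-231. Of 21 genes of the luminal and hormone receptor list 17 passed the count filter. In MDA-MB-231 9 of them were at least 2-fold higher, and 2 in SUM159, with a median log2 fold change of -1.05. The simple keratins separated one from another. KRT19 was at 487 CPM in MDA-MB-231 and at 0.0546 in SUM159, a ratio of 8927 (95% counting interval 1602 to 352628), and it stayed low in SUM159 with MBZ (6608 counts in MDA-MB-231 and 13 in SUM159). Its neighbours in function were expressed in both lines, KRT8 at 1066 and 515, KRT18 at 428 and 229 and KRT7 at 661 and 599.9 CPM (MDA-MB-231 first), and none of these 3 passed the line test (adjusted p = 0.411, 0.219 and 0.569). The ETS factor SPDEF, which drives secretory differentiation of epithelia, had 1674 counts in MDA-MB-231 and 5 in SUM159, 236-fold higher in MDA-MB-231 (interval 103 to 744, line test adjusted p = 0.000323). Another ETS factor of epithelia, EHF, was 8.78-fold higher (interval 6.75 to 11.6, adjusted p = 0.00624, and adjusted p = 0.0670 without treatment in the model). The secretory products AGR2, TFF3 and TFF1 had 905, 227 and 94 counts in MDA-MB-231 and none in SUM159, so that AGR2, a disulphide isomerase of mucin-secreting cells, was at least 217-fold higher. In the other direction FOXA1, the pioneer factor of oestrogen receptor binding, had no count in MDA-MB-231 and 46 in SUM159, and GATA3 was 2.45-fold higher in SUM159 (interval 2.02 to 2.97) with a log2 fold change of -0.68 with MBZ and adjusted p = 0.697 in the line test.

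Basal and myoepithelial genes leaned towards SUM159. Of 23 listed, 15 could be compared, 10 were higher in SUM159 and 3 in MDA-MB-231 (median log2 fold change 1.74, and 0.71 with MBZ). MME (CD10, a surface peptidase of myoepithelial cells, on chromosome 3 from 155024124 to 155183704) had no count in MDA-MB-231 and 4306 in SUM159 with DMSO and 0 and 3258 with MBZ, so it was at least 1991-fold higher in SUM159. TP63, the basal transcription factor, was at 4.84 and 116 CPM, 24.0-fold higher in SUM159 (interval 20.0 to 29.1, adjusted p = 0.00713), and NGFR, the low-affinity neurotrophin receptor, was 73.6-fold higher (interval 32.1 to 235, adjusted p = 0.00104). Smooth-muscle actin ACTA2 was 13.3-fold higher (interval 9.47 to 19.4), and FOXC1, a factor of basal-like tumours, was 3.35-fold higher (interval 2.87 to 3.92). The basal keratins themselves were nearly silent, KRT5 with 0 and 13, KRT14 with 2 and 13 and KRT6A with 0 and 0 counts. KRT81, a hair keratin, went the other way, with 12504 counts in MDA-MB-231 and 84 in SUM159 with DMSO and 9999 and 184 with MBZ. It was 107-fold higher in MDA-MB-231 with DMSO (interval 86.6 to 135, adjusted p = 0.000414), and ID4 had 154 counts in MDA-MB-231 and none in SUM159. KRT81 has close relatives in its keratin cluster, among which reads can be split.

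Both lines carried mesenchymal genes, in part different ones. Vimentin (VIM) was abundant in both, at 1859 CPM in MDA-MB-231 and 2969.5 CPM in SUM159. Of the 19 mesenchymal genes compared, 9 were higher in SUM159 and 5 in MDA-MB-231. N-cadherin (CDH2) had 17 counts in MDA-MB-231 and 2102 in SUM159 with DMSO and 10 and 1469 with MBZ, and with DMSO it was 170.1-fold higher in SUM159 (interval 107 to 295, adjusted p = 0.000323). Cadherin 11 (CDH11), another mesenchymal cadherin, was the opposite, with 1679 counts in MDA-MB-231 and 1 in SUM159 with DMSO, 1510 and 1 with MBZ and a ratio with DMSO of 1210.1 (interval 217 to 47825, adjusted p = 0.000323). TWIST1, TWIST2 and FOXC2, transcription factors of the mesenchyme, had 329, 1015 and 406 counts in SUM159 and none in MDA-MB-231, which puts them with DMSO at least 152-, 469- and 188-fold higher. SNAI1 was 25.8-fold higher in SUM159 (interval 17.1 to 41.4) and ZEB2 5.24-fold (interval 4.48 to 6.16). ZEB1 was 2.21-fold higher in MDA-MB-231 (interval 1.98 to 2.47) but did not pass the line test (adjusted p = 0.169), and SNAI2 was at 9.40 and 7.97 CPM in MDA-MB-231 and SUM159. SOX9, a factor of progenitor cells and cartilage, was 214-fold higher in MDA-MB-231 (4790 counts in MDA-MB-231 and 16 in SUM159, interval 133 to 378). SPARC, a collagen-binding secreted protein, had 38 counts in MDA-MB-231 and 16113 in SUM159 with DMSO and 18 and 8892 with MBZ, 586-fold higher in SUM159 (interval 428 to 832).

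Genes of epithelial junctions were mostly higher in MDA-MB-231, with DMSO and with MBZ. Of 39 listed, 14 had too few counts in both lines to be compared, among them CDH1 (E-cadherin) with 11 and 0, GRHL2 with 6 and 1 and ESRP1 with 4 and 0 counts. Of the 25 compared, 16 were higher in MDA-MB-231 and 3 in SUM159, with a median log2 fold change of -3.47 (-2.95 with MBZ). The median depended on the filter and was -1.44 with every gene that had a count and -0.93 with genes that averaged 100 counts. In the line test 13 of 25 passed in the first direction and 2 in the second. SPINT2 had 11525 counts in MDA-MB-231 and 18 in SUM159 with DMSO and 6163 and 63 with MBZ, 459-fold higher in MDA-MB-231 with DMSO (interval 292 to 779). The claudins CLDN4 and CLDN7, tight junction proteins, had 3415 and 159 and 527 and 5 counts, 15.5- and 74.4-fold higher in MDA-MB-231 (intervals 13.2 to 18.3 and 32.3 to 235), and CLDN3 had 159 and 0. Of the 5 genes that are low in claudin-low lines (CDH1, EPCAM, CLDN3, CLDN4 and CLDN7), CLDN4 was at 134 CPM and CLDN7 at 20.7 CPM in MDA-MB-231, and in SUM159 all 5 were below 10 CPM. EPCAM, an adhesion molecule of epithelia, was 17.0-fold higher (interval 7.76 to 47.9) at a low level of 5.66 CPM. In the desmosome, DSP (desmoplakin) and PKP2 were 11.1- and 31.6-fold higher in MDA-MB-231 (intervals 9.34 to 13.3 and 22.4 to 46.2), while the desmosomal cadherin DSG2 was at 83.1 and 81.2 CPM in MDA-MB-231 and SUM159 (interval of the ratio of MDA-MB-231 over SUM159 0.957 to 1.09). JUP (plakoglobin) was 2.76-fold higher in SUM159 (interval 2.65 to 2.87, adjusted p = 0.0251), as was CLDN1 by 8.39-fold (interval 6.10 to 11.9, adjusted p = 0.0211). Neither passed without treatment in the model (adjusted p = 0.118 for JUP and adjusted p = 0.0536 for CLDN1). The scaffold TJP1 was at 70.1 and 73.2 CPM.

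**Figure D3:**
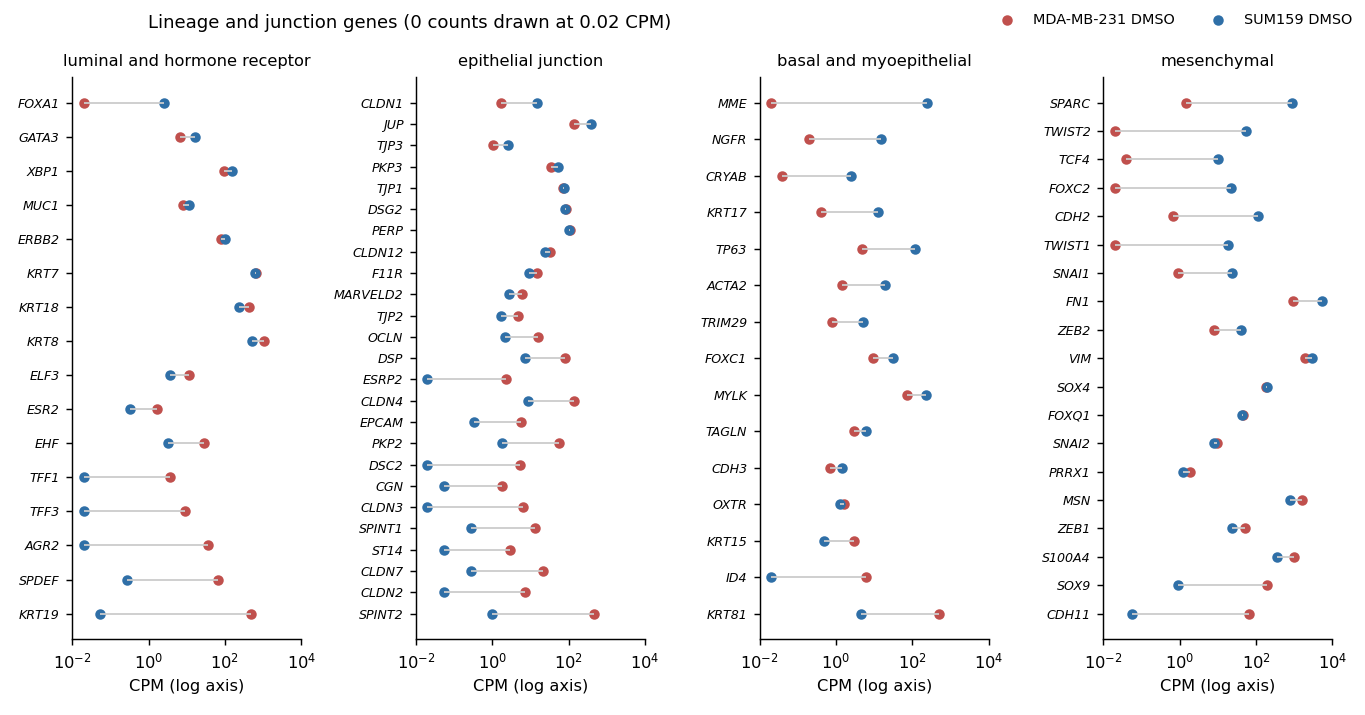
Level in CPM (x axes, log) of genes compared in 4 lineage lists (y axes), red for MDA-MB-231 and blue for SUM159 with DMSO, joined by a line for each gene, with 0 counts drawn at 0.02. Luminal and junction genes spread to the left in SUM159, down to no count for AGR2 and CLDN3, and TWIST1, TWIST2, FOXC2 and MME spread to the left in MDA-MB-231.

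Integrins, the receptors that couple cells to the matrix, differed in both directions. Of 26 subunits 19 were compared, 9 were higher in SUM159 and 6 in MDA-MB-231. Per kilobase of exons, the most abundant subunits with DMSO were ITGA3, ITGB5, ITGB4 and ITGB1 in MDA-MB-231 (110, 63.2, 59.6 and 58.4) and ITGA5, ITGA3, ITGB5 and ITGB1 in SUM159 (51.6, 49.2, 35.5 and 33.4), all in CPM per kb. ITGB4 and ITGA6, which pair as the laminin receptor of hemidesmosomes, were 2.92- and 3.05-fold higher in MDA-MB-231 (intervals 2.80 to 3.05 and 2.89 to 3.21), and in the line test ITGB4 passed with treatment in the model (adjusted p = 0.0138) but not without it (adjusted p = 0.12), and ITGA6 did not pass (adjusted p = 0.0841) except when every gene with a count was kept (adjusted p = 0.0195). ITGA5, the alpha chain of the fibronectin receptor, was 2.95-fold higher in SUM159 (interval 2.83 to 3.08, adjusted p = 0.0116). The collagen-binding ITGA11 had 1 count in MDA-MB-231 and 1333 in SUM159 and the laminin-binding ITGA7 21 and 535, and both passed the line test (adjusted p = 0.000359 and 0.000980). ITGB3 was 2.70-fold higher in SUM159 (interval 2.36 to 3.10) and ITGAV, its partner, 2.31-fold (interval 2.18 to 2.45, adjusted p = 0.413), with a log2 fold change of ITGAV with MBZ of -0.28. ITGAX and ITGAM, subunits usually found on leukocytes, had 54 and 39 counts in SUM159 and none in MDA-MB-231.

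Other adhesion molecules were more often higher in SUM159, 17 of 33 compared against 10 in MDA-MB-231. Their median log2 fold change was 1.63, 0.27 with genes that averaged 100 counts and 0.35 with MBZ, and 13 and 8 passed the line test. CDH13 (T-cadherin) had no count in MDA-MB-231 and 5802 in SUM159 and CADM3, a nectin-like adhesion molecule of neurons, 0 and 5615. With MBZ, CADM3 had 0 and 482 counts, so it had no count in MDA-MB-231 with either treatment. NRCAM and NCAM2, neural members of the immunoglobulin family, were 72.3-fold higher (interval 51.3 to 107) and had 1 and 662 counts. ICAM1 was 3.90-fold higher in SUM159 (interval 3.60 to 4.23), and VCAM1 had 0 and 327 counts. Higher in MDA-MB-231 were the classical cadherin CDH4, with 1663 counts in MDA-MB-231 and 2 in SUM159, and ALCAM, by 11.4-fold (interval 9.86 to 13.4). The tetraspanin CD9 and the giant cadherin FAT1 were 3.42- and 3.23-fold higher there (intervals 3.27 to 3.57 and 3.12 to 3.36). The hyaluronan receptor CD44 was 3.10-fold higher in SUM159 (interval 3.02 to 3.17, adjusted p = 0.0369). Of 15 stem cell markers 11 were compared, 5 higher in SUM159 and 5 in MDA-MB-231. Among them CD24 had 293 and 1900 counts with DMSO and 329 and 235 with MBZ, the log2 fold change being 3.17 and -0.60. PROCR was 3.34-fold higher in SUM159 (interval 2.98 to 3.76, adjusted p = 0.00604), LGR5 had 111 and 1 counts, and ALDH1A1, PROM1 and NANOG had no more than 2 counts in either DMSO library.

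Receptor tyrosine kinases split in both directions, 12 of 38 higher in SUM159 and 15 in MDA-MB-231, with a median log2 fold change of 0.02. AXL, the GAS6 receptor, and EPHA2 were the most abundant per kilobase in MDA-MB-231 and were 3.18- and 4.42-fold higher there (intervals 3.09 to 3.28 and 4.23 to 4.62, adjusted p = 0.0259 and 0.0334). EGFR was at 268 and 197 CPM and MET, the HGF receptor, at 245 and 127, and neither passed the line test (adjusted p = 0.141 and 0.0655), though MET did with every gene kept and with the DESeq2 Wald test (adjusted p = 0.0341 and 0.0222). EPHB2 had 2113 and 21, MST1R (the RON kinase) 575 and 3, MERTK 660 and 29 and ERBB3 191 and 11 counts, all lower in SUM159. The reverse held for ROS1, with no count in MDA-MB-231 and 4022 in SUM159 with DMSO and 0 and 1406 with MBZ (on chromosome 6 from 117287353 to 117425942), and for the PDGF receptors PDGFRA (0 and 1026) and PDGFRB (138 and 2235), which mark fibroblasts and pericytes. ROS1 was at least 1860.1-fold and PDGFRA at least 475-fold higher in SUM159, and PDGFRB 22.4-fold (interval 18.9 to 26.9). PTK7 and DDR1, a collagen receptor, were 4.41- and 2.40-fold higher in SUM159 (intervals 4.17 to 4.66 and 2.29 to 2.52). FGFR1, IGF1R and INSR were expressed in both lines within 1.5-fold of each other.

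Of 56 other receptors 53 were compared, 18 higher in SUM159 and 13 in MDA-MB-231, against 22.0% and 21.2% of all genes. Their median log2 fold change was 0.58, and 0.10 with MBZ. In the line test 12 and 9 of 54 passed, against 11.6% and 9.85% of all genes tested. F2RL1 (PAR2), which is cleaved by trypsin-like proteases, had 9546 counts in MDA-MB-231 and 24 in SUM159, 285-fold higher in MDA-MB-231 (interval 193 to 448), whereas the thrombin receptor F2R was 6.37-fold higher in SUM159 (interval 6.09 to 6.68). GPRC5A was 13.3-fold and the Wnt co-receptor LRP5 4.60-fold higher in MDA-MB-231 (intervals 12.1 to 14.7 and 4.44 to 4.78). In the interleukin 6 family, IL6R, OSMR and the shared chain IL6ST were 54.5-, 3.44- and 3.85-fold higher in SUM159 (intervals 36.0 to 87.9, 3.31 to 3.59 and 3.67 to 4.03), and of the 3 IL6R passed the line test (adjusted p = 0.00377, 0.0521 and 0.144), while with every gene kept OSMR and IL6ST passed too (adjusted p = 0.00587 and 0.0306). IL1R1, NOTCH3 and the TGF-beta co-receptor ENG were 13.8-, 21.5- and 75.1-fold higher in SUM159 (intervals 11.8 to 16.2, 17.0 to 27.7 and 55.4 to 105). The glucocorticoid receptor NR3C1 was at 101 and 180.3 CPM in MDA-MB-231 and SUM159 (adjusted p = 0.590).

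Matrix genes were mostly higher in SUM159. Collagens summed to 1443 CPM in MDA-MB-231 and 7788 CPM in SUM159, and of 27 compared 20 were higher in SUM159 and 3 in MDA-MB-231 (median log2 fold change 2.88, and 1.18 with MBZ). Type VI collagen, which forms beaded filaments around cells, was the most abundant per kilobase of exons in SUM159 through COL6A2 and COL6A1, and COL6A1, COL6A2 and COL6A3 were at 1000.4, 979 and 1971 CPM and 5.62-, 21.2- and 83.5-fold higher (intervals 5.44 to 5.81, 20.0 to 22.5 and 77.0 to 90.7). COL5A1 and COL5A2 of the fibrillar type V were 7.37- and 105-fold higher (intervals 7.14 to 7.61 and 68.7 to 171). The basement membrane collagen IV divided by gene pair. COL4A1 and COL4A2, the common pair, were 2.94- and 5.81-fold higher in MDA-MB-231 (intervals 2.60 to 3.34 and 5.28 to 6.41), while COL4A5 and COL4A6 were 19.3- and 235-fold higher in SUM159 (intervals 17.5 to 21.4 and 154 to 382), and all 4 passed the line test, COL4A1 not without treatment in the model (adjusted p = 0.0504). COL13A1, a transmembrane collagen, had 9300 counts in MDA-MB-231 and 28 in SUM159 and was 238-fold higher in MDA-MB-231 (interval 166 to 360.5). COL12A1 was 31.8-fold higher in SUM159 with DMSO (interval 28.9 to 35.0), but its counts with MBZ were 769 and 700 (log2 fold change -0.25) and it did not pass the line test (adjusted p = 0.260), though it did when every gene with a count was kept (adjusted p = 2.43e-05). COL1A1 had 247 and 1343 counts and its partner chain COL1A2 13 and 5.

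Of 52 other matrix genes 44 were compared, 30 higher in SUM159 and 6 in MDA-MB-231 (median log2 fold change 2.43, and 0.97 with MBZ). Fibronectin (FN1) reached 5362 CPM in SUM159 against 945 in MDA-MB-231, 5.68-fold higher (interval 5.60 to 5.76), and did not pass the line test (adjusted p = 0.0988), its log2 fold change with MBZ being 0.76. FN1 did pass when every gene with a count was kept and with the DESeq2 Wald test (adjusted p = 0.000795 and 0.00737). TGFBI, a matrix protein induced by TGF-beta, was at 192 and 2824 CPM, 14.7-fold higher in SUM159 (interval 14.3 to 15.2, adjusted p = 0.00252), and FBLN1 (fibulin 1) had 108 counts in MDA-MB-231 and 15587 in SUM159, a counting interval of 166 to 244 for its fold. The matrix-associated factors CCN1 and CCN2, textbook targets of the YAP and TAZ co-activators, were 6.22- and 50.5-fold higher in MDA-MB-231 (intervals 5.89 to 6.58 and 39.6 to 65.7, adjusted p = 0.00331 and 0.00534), and ANKRD1 above is known as another. Thrombospondin 1 (THBS1) was 3.21-fold higher in MDA-MB-231 (interval 3.08 to 3.34), while the laminin chain LAMB3 was 2.29-fold higher in SUM159 (interval 2.21 to 2.38, adjusted p = 0.103). DCN, MGP and VCAN, proteins of connective tissue, had 0 and 335, 1 and 465 and 6 and 636 counts.

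Among 36 remodelling genes compared of 44, 15 were higher in SUM159 and 8 in MDA-MB-231. MMP2 was the most abundant of the list per kilobase in SUM159 (586 CPM per kb) and was 8601-fold higher there (interval 4444 to 20286), with 3 and 10911 counts with MBZ. MMP14, the membrane protease that activates the MMP2 zymogen, was at 730.0 and 656 CPM in MDA-MB-231 and SUM159, and the metalloproteinase inhibitors TIMP2 and TIMP3 were at 654 and 1122 and 1893 and 1869.7 CPM. ADAM12 was 52.4-fold higher in SUM159 (interval 41.4 to 67.7), and ADAM8 and ADAM19 were 68.2- and 22.8-fold higher in MDA-MB-231 (intervals 51.6 to 92.5 and 18.6 to 28.3). The collagen-crosslinking lysyl oxidases also exchanged members. LOX was 4.03-fold higher in MDA-MB-231 (interval 3.49 to 4.68), LOXL4 had 500 and 0 counts, LOXL1 was 12.4-fold higher in SUM159 (interval 11.3 to 13.6) and LOXL2 was at 257 and 262 CPM. The collagenase MMP1 was 10.3-fold higher in SUM159 with DMSO (interval 7.45 to 14.6), and its counts with MBZ were 115 and 12005. The urokinase PLAU and its receptor PLAUR were 3.91- and 2.88-fold higher in MDA-MB-231 (intervals 3.69 to 4.14 and 2.63 to 3.17), the line test giving adjusted p = 0.0106 for PLAU and adjusted p = 0.315 for PLAUR, whose log2 fold change with MBZ was 0.07.

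Genes of secreted signals were split between the lines. Of 54 compared, 22 were higher in SUM159 and 20 in MDA-MB-231. Of the 57 genes of the list in the line test, 23 and 13 passed, against 11.6% and 9.85% of all genes tested. Among ligands of EGFR and its relatives, TGFA had 3183 and 29, AREG 1363 and 21, BTC 76 and 0, NRG1 1102 and 98 and HBEGF 1487 and 330 counts with DMSO, and of these 5 HBEGF alone did not pass the line test (adjusted p = 0.449), its log2 fold change with MBZ being 0.38, and NRG1 did not pass without treatment in the model (adjusted p = 0.0596). EREG, also an EGFR ligand, was under 2-fold apart with DMSO (785 and 429 counts) and higher in SUM159 with MBZ (1122 and 7279 counts), log2 fold changes of -0.40 and 2.58. FGF2 and HGF, the MET ligand, were on the SUM159 side with 1 and 648 and 0 and 527 counts. In the TGF-beta family BMP4 was 32.8-fold and TGFB2 3.08-fold higher in MDA-MB-231 (intervals 28.1 to 38.6 and 2.79 to 3.40), BMP2 was 14.5-fold higher in SUM159 (interval 9.44 to 23.8), and TGFB1 was at 196 and 259 CPM. Wnt ligands of one family split by line, WNT5A with 8 and 818 and WNT5B with 628 and 6 counts. Of the cytokines, IL32 had 17 and 5889, CCL5 11 and 2035 and IL6 44 and 682 counts, all higher in SUM159, and IL11 and LIF had 800 and 5 and 1271 and 95, higher in MDA-MB-231. The line difference of LIF was not seen with MBZ, where its counts were 1562 and 2168. IGFBP4 and IGFBP7, which bind insulin-like growth factors, were 2.88- and 16.9-fold higher in MDA-MB-231 (intervals 2.85 to 2.91 and 15.8 to 18.2).

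Proliferation genes were higher in MDA-MB-231 with DMSO and their median differences were near 0 with MBZ. All 26 G2/M genes were at least 2-fold higher in MDA-MB-231, against 21.2% of all genes, with a median log2 fold change of -3.45. They summed to 5174 CPM in MDA-MB-231 and 473 CPM in SUM159. MKI67, the proliferation antigen Ki-67, had 16281 counts in MDA-MB-231 and 885 in SUM159, 13.3-fold higher in MDA-MB-231 (interval 12.4 to 14.2). CCNB1 (cyclin B1) was 9.40-fold, TOP2A (topoisomerase II alpha) 8.85-fold and the kinesin KIF2C 21.4-fold higher (intervals 8.72 to 10.2, 8.30 to 9.44 and 18.6 to 24.8). The smallest difference was that of HMMR at 2.02-fold (interval 1.51 to 2.75). HMMR was the 1 gene of the list that was at least 2-fold higher in SUM159 with MBZ (log2 fold change 2.15). With TMM over 4 libraries or a prior count of 2, HMMR fell just under 2-fold with DMSO and 25 of the 26 were called. Of 28 G1/S genes 24 were at least 2-fold higher in MDA-MB-231 and none in SUM159 (median -2.11), among them TK1 (thymidine kinase) by 14.2-fold, CDC6, which licenses replication origins, by 13.2-fold and the helicase subunit MCM7 by 4.67-fold (intervals 12.9 to 15.6, 11.2 to 15.7 and 4.45 to 4.90).

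In the MBZ pair none of the 26 G2/M genes was at least 2-fold higher in MDA-MB-231 and 1 was at least 2-fold higher in SUM159. Their median log2 fold change was -0.05, and for G1/S genes the median was -0.10. With MBZ 1 G1/S gene was at least 2-fold higher in each line, CDC6 in MDA-MB-231 with counts of 1874 and 666 (log2 fold change -1.61). MKI67 then had 5966 counts in MDA-MB-231 and 5801 in SUM159 and CCNB1 5084 and 6625, log2 fold changes of -0.16 and 0.26. In the line test over the 4 libraries 0 of 26 G2/M genes and 1 of 28 G1/S genes (CDC6, adjusted p = 0.0170) passed. Of all genes tested 9.85% passed as higher in MDA-MB-231 and 11.6% as higher in SUM159. The adjusted p-values of MKI67, CCNB1 and TOP2A in this test were 0.179, 0.285 and 0.0570. By edgeR's unadjusted p under 0.05, 10 of the 26 and 11 of the 28 passed, against 35.7% of all genes tested. The DESeq2 Wald test called 11 and 8 at an adjusted p under 0.05, against 22.1% of all genes. The line test thus depended on the filter for these lists, since with every gene that had a count it called 22 of the 26 and 13 of the 28, against 14.9% of all genes, with adjusted p = 0.000103 for MKI67, 0.00487 for CCNB1 and 6.54e-06 for TOP2A. With every gene kept, CCNB1 passed although its log2 fold change was -3.23 with DMSO and 0.26 with MBZ. A call in that setting does not by itself show a line difference that held with both treatments. With 1 DMSO library per line, the growth state of each culture cannot be told apart from the cell line. Among 18 cell cycle regulators compared of 21, 9 were higher in MDA-MB-231 and 3 in SUM159. The regulators that passed the line test included CDK6, RBL1 and E2F7, higher in MDA-MB-231 by 2.43-, 5.76- and 6.90-fold (intervals 2.21 to 2.67, 4.82 to 6.94 and 6.05 to 7.90, and E2F7 did not pass without treatment in the model, adjusted p = 0.138), and RBL2 (p130, the pocket protein of resting cells) and MYC, higher in SUM159 by 5.37- and 3.43-fold (intervals 4.82 to 6.01 and 3.28 to 3.59). CCND1 (cyclin D1) was 2.36-fold higher in MDA-MB-231 (interval 2.29 to 2.43, adjusted p = 0.194).

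**Figure D4:**
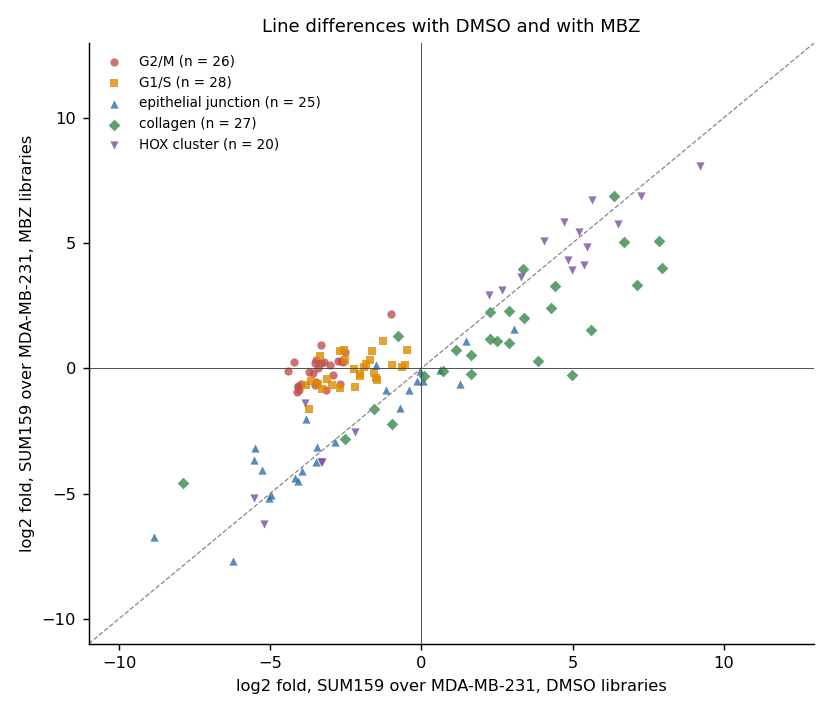
Log2 fold of SUM159 over MDA-MB-231 with DMSO (x axis) against that with MBZ (y axis) for members of 5 lists, each point a gene, with the dashed line marking equal folds. G2/M and G1/S genes lie left of the vertical line at 0 and mostly near 0 in height (HMMR is highest at 2.15), with medians of -3.45 and -2.11 with DMSO and -0.05 and -0.10 with MBZ, while the medians of junction genes were -3.47 and -2.95 and those of HOX genes 4.39 and 3.91, with single genes such as HOXA13 (-1.39 with MBZ) off the dashed line.

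The promoters of G2/M genes were read for letters that the list did not use. Periodic genes of late cell cycle are known to carry CCAAT boxes, bound by NF-Y, and a cell cycle homology region (CHR), bound by the DREAM and MYB-MuvB complexes. Promoters of RefSeq (GRCh38.p14) were matched by symbol for 21 of 26 G2/M genes, and the 250 bases before each start were read. A CCAAT box (CCAAT or, on the other strand, ATTGG) was in 18 of 21 (85.7%), against 37% of 27305 genes. That share was not particular to the list, since HOX genes had 17 of 20 (85%) and luminal genes 66.7%. A CHR-type motif (TTTGAA, its reverse complement TTCAAA, or the palindrome TTTAAA) was in 17 (81%), against 25.5% of all genes and 50% in the next highest of the 20 lists. Both motifs were in 15 (71.4%), against 10.7% of all genes. For the 24 matched G1/S genes the shares were 75% for CCAAT and 25% for the CHR type. A match is a run of letters and not a measured binding site. The promoters of the 3 G2/M genes that held both motifs and had the highest CPM in MDA-MB-231 are shown 5′ to 3′ up to the start or the first annotated exon, with both motifs in capitals. In MKI67 a CHR-type motif and a CCAAT box share their border base.
MKI67 (chr10:128126424-128126673, minus strand, GRCh38.p14): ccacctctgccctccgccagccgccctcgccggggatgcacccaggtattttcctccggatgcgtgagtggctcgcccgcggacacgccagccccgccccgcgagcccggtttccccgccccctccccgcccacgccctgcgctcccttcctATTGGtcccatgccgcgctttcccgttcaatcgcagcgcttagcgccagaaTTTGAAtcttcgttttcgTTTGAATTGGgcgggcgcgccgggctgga
TOP2A (chr17:40417897-40418146, minus strand, GRCh38.p14): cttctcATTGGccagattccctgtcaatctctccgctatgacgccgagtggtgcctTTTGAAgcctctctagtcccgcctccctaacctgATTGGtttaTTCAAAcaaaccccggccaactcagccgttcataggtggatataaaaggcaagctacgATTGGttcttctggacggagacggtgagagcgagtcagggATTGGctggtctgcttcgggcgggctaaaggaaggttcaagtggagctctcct
CCNB1 (chr5:69166900-69167134, plus strand, GRCh38.p14): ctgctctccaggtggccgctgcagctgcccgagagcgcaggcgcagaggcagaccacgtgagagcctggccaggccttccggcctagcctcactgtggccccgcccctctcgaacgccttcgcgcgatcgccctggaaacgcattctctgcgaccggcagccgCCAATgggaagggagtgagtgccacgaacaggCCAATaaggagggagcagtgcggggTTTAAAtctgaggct

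HOX genes, which keep a record of position along the body axis, differed between the lines. Of 39 HOX genes 20 could be compared, 14 at least 2-fold higher in SUM159 and 6 in MDA-MB-231, with 14 and 5 of 21 passing the line test. A HOX gene with few counts passes the filter only through the line where it is high, which by itself sets such genes far apart. The median log2 fold change was 4.39 over the genes compared and 1.69 over every HOX gene with a count that gave a fold. The clusters differed in use. Of the 11 HOXA genes on chromosome 7, 8 had more than 3 counts in SUM159 and 1, HOXA13 (60 and 2), in MDA-MB-231. HOXA3 had 195 counts in SUM159 and none in MDA-MB-231 with either treatment. Of the 10 HOXB genes on chromosome 17, 7 had more than 3 counts in MDA-MB-231 and 2 in SUM159. HOXB9 had 192 and 2 and HOXB3 155 and 3 counts, and the exception was HOXB13 with 0 and 62. HOXC genes on chromosome 12 were shared at low level in MDA-MB-231 and higher in SUM159, all 7 compared being higher there. HOXC10 (chromosome 12 from 53985065 to 53990279) had the most counts with no count in MDA-MB-231 and 1273 in SUM159 with DMSO and 0 and 867 with MBZ, at least 589-fold higher with DMSO, and HOXC6 was 4.70-fold higher (interval 3.58 to 6.25). No HOXD gene had enough counts to be compared. Many HOX genes overlap antisense or neighbouring transcripts, so without a known strand setting part of a HOX count may be from such a transcript.

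**Figure D5:**
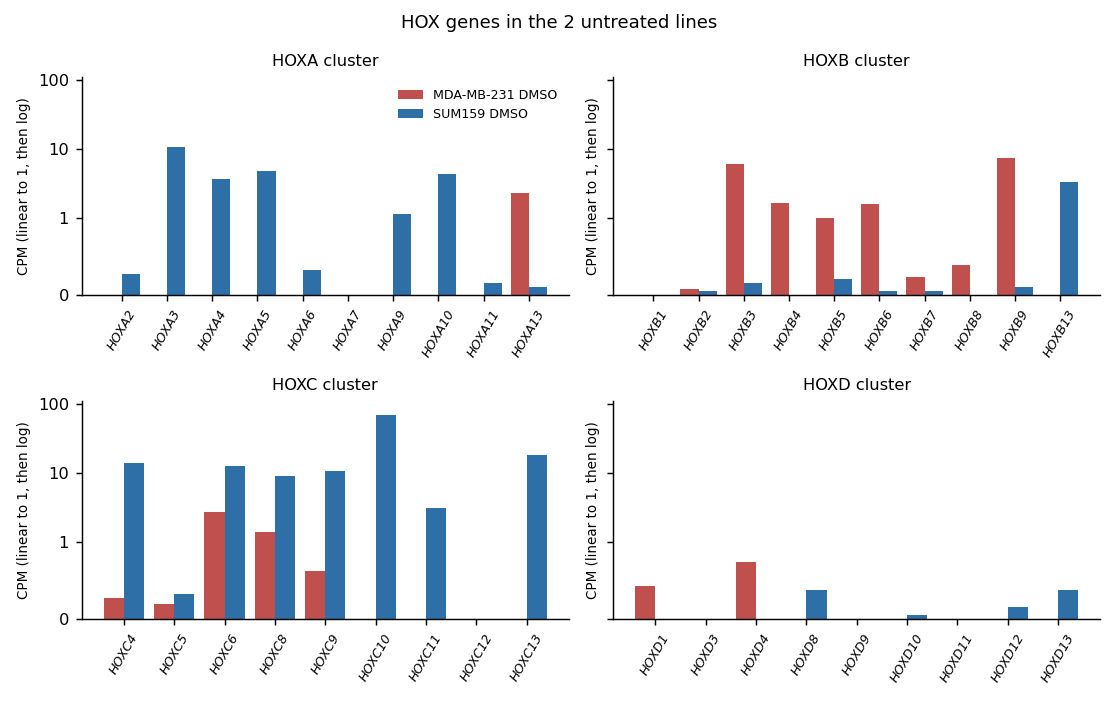
Level in CPM (y axes, linear to 1 and logarithmic above) of HOX genes in their 4 clusters (x axes, in order of gene number), red bars for MDA-MB-231 and blue bars for SUM159 with DMSO, 1 library each. HOXA and HOXC bars are mostly SUM159, with HOXC10 at 69.5 CPM, and HOXB3 to HOXB9 mostly MDA-MB-231, with HOXB9 at 7.55 CPM.

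Cancer-testis antigens, germline genes that tumours can switch on, also differed between the lines. Of 24 listed 8 could be compared, and 7 were higher in SUM159 and 1 in MDA-MB-231 (median log2 fold change 7.89, and 2.96 with every gene that had a count). Of all genes compared 22.0% and 21.2% were called in these directions. A gene that is silent in 1 line passes the filter only through the other, which by itself sets such genes far apart. In SUM159, MAGEC2 had 3861 counts (against 44), and MAGEA6, PAGE5, MAGEA12 and MAGEC1 had 1974, 1686, 1439 and 1002 counts with none in MDA-MB-231. SPANXB1 had 4286 counts in MDA-MB-231 and 14 in SUM159, 219-fold higher in MDA-MB-231 (interval 131 to 404). The MAGEA, PAGE and SPANX families hold near-identical copies, so the member that carries the reads is uncertain.

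Glucocorticoid-responsive genes were compared because hydrocortisone was in the medium of SUM159 cells only. Of 16 compared, 10 were higher in SUM159 and 4 in MDA-MB-231, with a median log2 fold change of 1.30 (0.70 with MBZ). Of all genes 22.0% and 21.2% were called in these directions. With MBZ 5 of 16 were at least 2-fold higher in SUM159 and 1 in MDA-MB-231. In the line test 5 and 1 of 16 passed, against 11.6% and 9.85% of all genes tested. FKBP5, a co-chaperone of the receptor, was 3.63-fold higher in SUM159 (interval 3.38 to 3.90, adjusted p = 0.00662), KLF9 9.14-fold (interval 7.93 to 10.6, adjusted p = 0.00936) and CEBPD 11.5-fold (interval 10.7 to 12.5, adjusted p = 0.00307). The zinc finger gene ZBTB16 had 0 and 433 counts with DMSO and 0 and 276 with MBZ, at least 200.3-fold higher in SUM159. Other responsive genes did not follow. ANGPTL4 and the metallothionein MT2A were 72.2- and 4.36-fold higher in MDA-MB-231 (intervals 33.5 to 201 and 4.22 to 4.52), and MT2A had 14537 and 22869 counts with MBZ, a log2 fold change of 0.54 (line test adjusted p = 0.493). SGK1 was at 7.36 and 6.60 CPM in MDA-MB-231 and SUM159. The part of the medium and the part of the line in these values cannot be told apart.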

How the data were processed

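RNA from MDA-MB-231 and SUM159 cells, 4 libraries with 1 per line and treatment, was sequenced. The deposited values are raw read counts per Ensembl gene. Per the methods, the authors aligned reads to GRCh38 with STAR 2.5, counted them with HTSeq 0.6.1 in union mode and used edgeR 3.16.5. The annotation release and the strand setting are not given in the sources used here. Symbols and positions were matched by Ensembl ID for 58207 of 58735 genes.

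Counts were scaled by TMM over the DMSO pair, and genes with an average of 10 or more counts were compared as CPM with a prior count of 0.125. A count at or under 3 gave a bound (0 counts) or a ratio with its interval. Intervals are 95% Clopper-Pearson. The line test used edgeR 4.0.16 (glmQLFit and glmQLFTest, filterByExpr, TMM, treatment and line as terms) in R 4.3.3, with DESeq2 1.42.0 as an alternative, and the code was tested on simulated data. Samples were grouped by their labels. Total counts ran from 17143139 to 24897586 per library.

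Named genes are list members, first those with the highest CPM or the widest difference, the 10 protein-coding genes of each direction farthest apart among those that averaged 1000 counts, and the 5 genes with the most counts in each DMSO library. The comparison, the members and the 20 lists were chosen with earlier results of these data known. Alternatives were other scalings, filters, prior counts, folds and tools, and the MBZ pair. Most list members are given only in the counts of their list, and a few are not drawn in the plots that name genes and are not reported here by name.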

Additional observations from a re-analysis of the deposited data

Results flagged for a closer look

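HMMR, the hyaluronan-mediated motility receptor of the mitotic spindle, was at least 2-fold apart in opposite directions with the 2 treatments. Its log2 fold change of SUM159 over MDA-MB-231 was -1.02 with DMSO and 2.15 with MBZ. The DMSO value was -0.999 with TMM over 4 libraries and -0.997 with a prior count of 2, both just under 2-fold. Over all genes that could be compared in both pairs, 92 were at least 2-fold apart in opposite directions, 45 of them higher in SUM159 with DMSO and 47 higher in MDA-MB-231 with DMSO. With 1 library per condition, the difference between the treatments was not tested for any of these genes.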

How the results depend on the processing

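Requiring a mean of 100 counts left 1813 genes at least 2-fold higher in SUM159 and 2043 in MDA-MB-231, and a fold of at least 4 left 1821 and 1713, since fewer genes pass by construction. The counts of calls stayed within 1.5 times under the other scalings, filters, prior count, folds and pair. Scaling by total counts gave 3287 and 3445. Calls of the line test ranged from 1710 to 2472 (SUM159) and from 1440 to 2343 (MDA-MB-231). With the MBZ pair the median log2 fold changes of G2/M and G1/S genes were -0.0549 and -0.0968. The median of receptor tyrosine kinases, 0.02, was -0.04 after scaling by total counts and -0.32 with the MBZ pair. With a mean of 100 counts the medians of integrins, secreted signals and stem cell markers turned to -0.60, -0.07 and 1.55, since fewer genes were compared, and those of basal, junction, other adhesion, other matrix, cancer-testis and other cell type genes to 4.16, -0.93, 0.27, 1.72, 8.86 and 4.85. With every gene that had a count, the medians of junction, integrin, other adhesion, collagen, HOX, cancer-testis and other cell type genes were -1.44, 1.21, 0.99, 2.16, 1.69, 2.96 and 1.49. With the MBZ pair those of secreted, cancer-testis and other cell type genes were 1.21, 6.0 and 1.30. In the MBZ pair 10 of the named genes that were at least 2-fold apart with DMSO changed sign, with log2 fold changes of 0.264 for CCNB1, -0.603 for CD24, -0.253 for COL12A1, -0.682 for GATA3, 0.38 for HBEGF, 2.15 for HMMR, -0.276 for ITGAV, 0.355 for LIF, 0.536 for MT2A and 0.0748 for PLAUR, and the cause was not tested. So did 9 named genes that were under 2-fold apart, such as EREG. Without treatment in the model 10 named genes lost their call in the line test, with adjusted p = 0.0536 for CLDN1, 0.0504 for COL4A1, 0.213 for DDR1, 0.138 for E2F7, 0.067 for EHF, 0.0713 for F2R, 0.277 for IL6, 0.12 for ITGB4, 0.118 for JUP and 0.0596 for NRG1, and over its 4 alternatives 19 named genes gained a call, 33 times in all. With every gene that had a count kept, all 19 did: CCNB1, CD24, COL12A1, EREG, FN1, HOXA13, IGFBP4, IL6ST, ITGA6, ITGAM, KIF2C, LIF, MCM7, MET, MKI67, OSMR, PTPRC, TK1 and TOP2A. With the DESeq2 Wald test FN1, IGFBP4, KIF2C, MET, MKI67, OSMR, PTPRC, TK1 and TOP2A did, with RLE normalization OSMR, PTPRC and TOP2A, and without treatment PTPRC and TOP2A, and the cause was not tested. Of the genes that gained a call with every gene kept, CCNB1, CD24, COL12A1, EREG and LIF changed sign with MBZ. A call in that setting does not by itself show a difference that held with both treatments. The line test compares the lines within each treatment, and the fit without treatment is its unpaired form. With 1 sample in each group, no block by replicate number could be fitted and no replicate could be left out. Differences in genes with few counts are limited by depth.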

Other observations

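Genes that were all but silent in one line and strong in the other were not limited to the lists. With DMSO, 26 genes had no count in MDA-MB-231 and at least 1000 counts in SUM159, and 9 had the reverse. Counting genes at 3 counts or fewer in the silent line gave 38 and 21.

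The line difference also varied by chromosome. Over 12909 protein-coding genes compared in both pairs, the median log2 fold change of SUM159 over MDA-MB-231 was -0.07 with DMSO. It was 0.65 for the 184 genes of chromosome 18, 0.47 for the 595 of chromosome 16 and 0.46 for the 294 of chromosome 22. It was -0.51 for the 418 genes of chromosome 14, -0.47 for the 735 of chromosome 11 and -0.47 for the 480 of chromosome 4. The medians with MBZ were 0.55, 0.58, 0.61, -0.53, -0.36 and -0.62 for these chromosomes in the same order.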
